A study of Aedes aegypti with 8 samples.

Results

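The transcription factors that relay 20-hydroxyecdysone and juvenile hormone were examined in the midgut of female *Aedes aegypti*, the yellow fever mosquito, with and without heme in the medium. The 6 factors were chosen by identifier: the ecdysone receptor EcR (AAEL009600), its partner ultraspiracle, USP (AAEL000395), the ecdysone-induced factors E75 (AAEL007397) and Broad (AAEL008426), the juvenile hormone receptor Methoprene-tolerant, Met (AAEL025915), and the juvenile hormone-induced factor Kr-h1 (AAEL002390). EcR was not analysed here, which says nothing of its expression, so 5 of the 6 factors were measured, out of 19712 identifiers in the count table. The names were taken as paired with the identifiers in the list of factors, and the annotation used here did not allow that pairing to be checked.

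Midguts came from Liverpool strain females 3 to 5 days old that had been fed sugar, and were held outside the body for 35 h at either of 2 heme concentrations. The 10 µM heme group had hemin chloride added to Schneider's *Drosophila* medium, and the 0 µM heme group had the same medium alone. Both media lacked fetal bovine serum and contained penicillin and streptomycin, and the tissue was cut off from the rest of the mosquito in both groups. Each group held 4 biological replicates, each a pool of midguts, giving 8 polyA RNA libraries of whole tissue.

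Steroid and juvenoid signals alternate through the female reproductive cycle. Juvenile hormone acts before a blood meal through Met, a basic helix-loop-helix PAS protein that switches on Kr-h1. After blood feeding, 20-hydroxyecdysone binds the EcR and USP heterodimer, which switches on early genes such as E75 and Broad. E75 is a nuclear receptor, and in *Drosophila* it carries heme in its ligand pocket, which links this set of factors to the molecule added here.

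Total counts ran from 46027977 to 56947544 per library. Levels are given as CPM, counts relative to the library total after TMM scaling, which corrects that total for a few dominant transcripts. Since transcript lengths were not used here, a level is compared between libraries for 1 gene and never between genes. In the edgeR exact test with Benjamini-Hochberg adjustment, 514 of 11095 tested genes were called at adjusted p 0.05, or 4.63%, with 246 higher (2.22%) and 268 lower (2.42%) in 10 µM heme. Without 10 µM heme replicate 3 the count of called genes was 333. AAEL000485, annotated as paramyosin, a protein of the visceral muscle around the gut, had 112.0 ± 5.04 CPM in 10 µM heme midguts and 119.5 ± 11.7 CPM in 0 µM heme midguts (SD, n = 4 each). The identifier annotated as a putative trypsin, AAEL002273, was low throughout. It had 9 to 17 counts in 10 µM heme midguts and 13 to 24 counts in 0 µM heme midguts. Other digestive markers were not analysed here. The tissue label thus rests on the sample descriptions, and these 2 identifiers cannot test it.

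The first question was whether heme exposure changed the transcript level of any factor. All 5 measured factors passed the filter on low counts. None of the 5 was called in either direction (0 of 5 by the edgeR exact test, beside 4.63% of all tested genes). At an unadjusted p under 0.05 there was 1, Broad, where 13.3% of all tested genes lay under that limit. Counts by other tools were also 0 of 5. The edgeR quasi-likelihood test had 1 factor at an unadjusted p under 0.05 (15% of all tested genes) and called 2.85% of genes, DESeq2 had 0 (15.3%) and called 6.45%, and weighted limma-voom had 1 (19.9%) and called 5.32%. With 5 factors and shares this low, 0 calls say little of the factors. Log2 fold changes of 10 µM over 0 µM heme ran from -0.20 for USP to 0.56 for Broad, with 2 factors above 0 and 3 below. Their median absolute log2 fold change was 0.20, beside 0.17 over all tested genes. In bulk tissue, fewer cells of a type and less RNA per cell cannot be told apart.

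**Figure D1:**
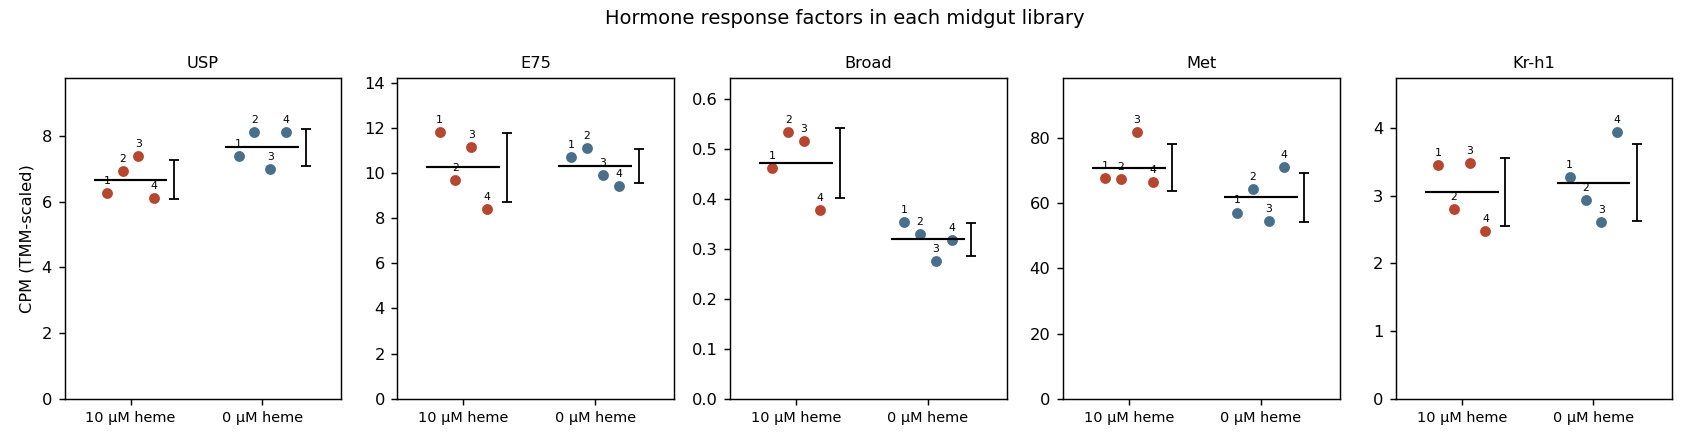
Level of each measured factor in every library, in TMM-scaled CPM on an axis from 0, with 10 µM heme midguts at left and 0 µM heme midguts at right. Points are libraries labelled by replicate number, horizontal lines are means and bars are ±1 SD (n = 4 each). Broad is the factor whose groups do not overlap, at 0.378 to 0.534 CPM against 0.276 to 0.353 CPM.

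USP, the retinoid X receptor homologue that EcR needs to bind DNA, was measured at 6.27, 6.93, 7.40 and 6.11 CPM in 10 µM heme replicates 1 to 4, against 7.40, 8.11, 6.99 and 8.13 CPM in 0 µM heme replicates 1 to 4. Heme replicates 1, 2 and 4 at 10 µM lay below all 0 µM libraries, and replicate 3 lay among them, so the groups overlapped under TMM scaling. The means were 6.68 ± 0.597 CPM in 10 µM heme midguts and 7.66 ± 0.563 CPM in 0 µM heme midguts (SD, n = 4 each). The log2 fold change was -0.20 ± 0.08 (SE) and did not pass the test (edgeR exact test, adjusted p = 0.696). The 95% interval from limma-voom, fitted with a quality weight for each library, ran from 0.756 to 1.03 times the 0 µM level. With library totals in place of TMM, all 10 µM libraries lay below all 0 µM libraries for USP. Its log2 fold change was then -0.29 (edgeR exact test, adjusted p = 0.544), and the median over all tested genes was -0.066. The share of all tested genes whose groups do not overlap with library totals was not computed.

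E75, the heme-binding nuclear receptor, was the factor with the smallest difference of the 5. Its level was 11.8, 9.67, 11.1 and 8.41 CPM in 10 µM heme replicates 1 to 4, against 10.7, 11.1, 9.91 and 9.43 CPM in 0 µM heme replicates 1 to 4. Under TMM scaling the 10 µM libraries held both the highest and the lowest value of the 8, and the 0 µM libraries lay between them. With library totals in place of TMM, 10 µM heme replicate 1 was no longer the highest, and 0 µM heme replicate 2 was. The log2 fold change of E75 with library totals was -0.11. The means were 10.3 ± 1.53 CPM in 10 µM heme midguts and 10.3 ± 0.762 CPM in 0 µM heme midguts (SD, n = 4 each). Its log2 fold change was -0.0061 ± 0.12 (SE), with an adjusted p of 1 in the edgeR exact test. The limma-voom interval ran from 0.857 to 1.21 times the 0 µM level.

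Broad, a BTB zinc finger factor of the early ecdysone response, had few reads. In 10 µM heme replicates 1 to 4 it had 21, 30, 25 and 23 counts, against 16, 19, 15 and 18 counts in 0 µM heme replicates 1 to 4. Scaled to library size, these were 0.462, 0.534, 0.515 and 0.378 CPM in 10 µM heme midguts, against 0.353, 0.329, 0.276 and 0.317 CPM in 0 µM heme midguts. Every 10 µM library thus lay above every 0 µM library. Under TMM scaling the groups did not overlap in 1 of the 5 factors and in 10.2% of all tested genes (4.87% higher in 10 µM heme, 5.32% lower). Means were 0.472 ± 0.0701 CPM in 10 µM heme midguts and 0.319 ± 0.0325 CPM in 0 µM heme midguts (SD, n = 4 each).

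Broad had a log2 fold change of 0.56 ± 0.12 (SE), or 1.48 times the 0 µM level, and did not pass the test over all genes (edgeR exact test, p = 0.0423, adjusted p = 0.342). Over the 17 alternatives that kept Broad in the fit, its adjusted p ranged from 0.106 to 0.708 and its log2 fold change from 0.48 to 0.66. The limma-voom interval, which is not adjusted for the number of genes, was 1.13 to 2.09 times the 0 µM level. Depth limited this estimate. The group sums were 99 counts in 10 µM heme midguts and 68 counts in 0 µM heme midguts, and counting error alone gives a coefficient of variation of 20.1% in the 10 µM and 24.3% in the 0 µM libraries. The spread seen between replicates, 14.8% and 10.2% in the same order, was smaller than that. Counting error on these sums alone gives a standard error of 0.23 for the log2 fold change of Broad, so the SE of 0.12 from the replicates is too small for it.

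Met, which binds juvenile hormone, was measured with the most reads of the 5, at 3073 to 4055 counts in 10 µM heme libraries and 2584 to 4038 counts in 0 µM heme libraries. Its level was 67.6, 67.4, 81.8 and 66.6 CPM in 10 µM heme replicates 1 to 4, against 57.1, 64.2, 54.4 and 71.1 CPM in 0 µM heme replicates 1 to 4. Of the 0 µM libraries, 3 lay below all 10 µM libraries, and replicate 4 lay above all 10 µM libraries except replicate 3. Means were 70.9 ± 7.32 CPM in 10 µM heme midguts and 61.7 ± 7.49 CPM in 0 µM heme midguts (SD, n = 4 each). The log2 fold change, 0.20 ± 0.11 (SE), did not pass the test (edgeR exact test, adjusted p = 0.636), and the limma-voom interval ran from 0.956 to 1.35 times the 0 µM level. Without 10 µM heme replicate 3 the log2 fold change of Met was 0.12, and with library totals in place of TMM it was 0.11. Library totals also moved the median over all tested genes, from 0.019 to -0.066, so that lower value is not particular to Met.

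Kr-h1, the zinc finger factor that Met induces, was measured at 3.45, 2.80, 3.48 and 2.48 CPM in 10 µM heme replicates 1 to 4, against 3.27, 2.93, 2.61 and 3.94 CPM in 0 µM heme replicates 1 to 4. The lowest library was a 10 µM one and the highest a 0 µM one, and the remaining values were interleaved. Means were 3.05 ± 0.497 CPM in 10 µM heme midguts and 3.19 ± 0.570 CPM in 0 µM heme midguts (SD, n = 4 each). The log2 fold change was -0.066 ± 0.17 (SE; edgeR exact test, adjusted p = 0.985), and the limma-voom interval was 0.724 to 1.22 times the 0 µM level. Its sign turned without 10 µM heme replicate 4 (0.023) and without 0 µM heme replicate 4 (0.054).

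**Figure D2:**
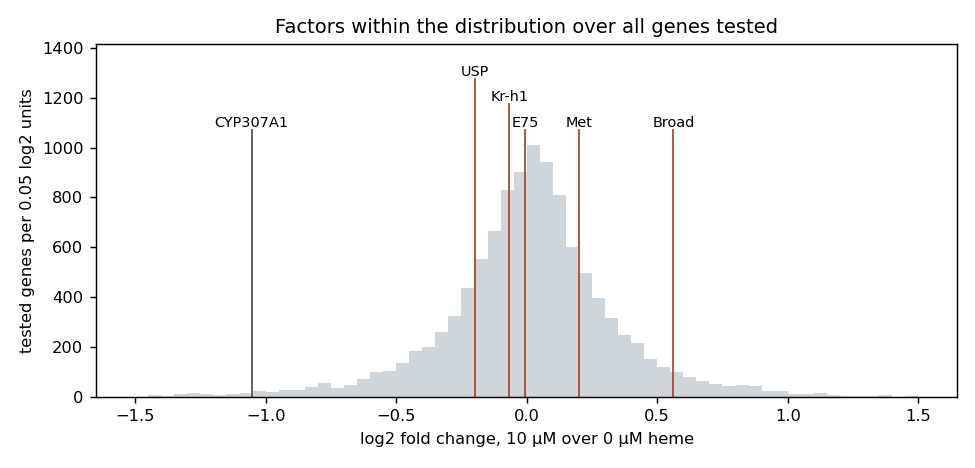
Number of tested genes per 0.05 units of log2 fold change, 10 µM over 0 µM heme, with vertical lines at the 5 factors (red) and at CYP307A1 (grey). The axis holds 10981 of the 11095 tested genes. E75, Kr-h1, USP and Met lie in the bulk, Broad at 0.56 lies on its upper side and CYP307A1 at -1.05 lies in the lower tail.

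Spread between replicates was next compared among the factors. The biological coefficient of variation that edgeR estimated was 13.4% for Met, 13.5% for USP, 15.0% for E75, 15.4% for Broad and 18.4% for Kr-h1, beside a median of 18.5% over all tested genes. For Met, counting error alone gives 1.64% in 10 µM heme and 1.74% in 0 µM heme libraries, so that nearly all of its spread of 10.3% and 12.1%, in the same order, lay beyond counting. For Broad the spread did not exceed counting error, as given above. Its 15.4% is an estimate that edgeR draws partly from other genes, and is not shown by the counts of Broad alone. No other identifier had counts within 2% of those of any of the 5 factors in all 8 libraries.

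Ratios within a library need no scaling between libraries, and were used to set the ecdysone-induced Broad against the juvenile hormone-induced Kr-h1. Broad counts were 13.4%, 19.1%, 14.8% and 15.2% of Kr-h1 counts in 10 µM heme replicates 1 to 4, against 10.8%, 11.2%, 10.6% and 8.04% in 0 µM heme replicates 1 to 4. All 10 µM libraries lay above all 0 µM libraries, as they already did for Broad alone. How often ratios of other gene pairs part the groups was not computed. The log2 ratio averaged -2.69 ± 0.22 in 10 µM heme midguts and -3.31 ± 0.22 in 0 µM heme midguts (SD, n = 4 each), a difference of 0.62 that ranged from 0.51 to 0.69 when a library was left out. The ratio rests on the 99 and 68 counts of Broad, whose spread between replicates was below counting error, and was not tested. Counting error on those sums alone gives a standard error of 0.23 for Broad, so the SDs of the ratio are no guide to its precision. Kr-h1 counts were 5.11%, 4.15%, 4.26% and 3.72% of Met counts in 10 µM heme replicates 1 to 4, against 5.73%, 4.56%, 4.80% and 5.55% in 0 µM heme replicates 1 to 4. Here the groups overlapped, and the log2 ratio averaged -4.55 ± 0.19 in 10 µM heme midguts and -4.28 ± 0.16 in 0 µM heme midguts (SD, n = 4 each).

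The other genes of the hormone pathways were taken from a list of 9 identifiers picked by their descriptions in the study's supplementary annotation, with 4 on the ecdysone side, 3 on the juvenile hormone side and 2 coregulators of transcription. That annotation was held in shortened form, from cultured cells of the same species, so the list covers only some hormone genes. Of these 9, 0 were called higher and 1 lower in 10 µM heme (edgeR exact test, adjusted p 0.05), beside 2.22% and 2.42% of all genes tested. The list was chosen with earlier results of these data known, so its counts are a description and not a test of the list. The median log2 fold change over the list was 0.13, beside 0.019 over all tested genes. The called gene was CYP307A1 (AAEL009762), a cytochrome P450 whose *Drosophila* counterpart, spook, acts in an early step of ecdysteroid synthesis.

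CYP307A1 was measured at 4.58, 5.43, 5.17 and 2.81 CPM in 10 µM heme replicates 1 to 4, against 10.6, 6.76, 11.1 and 8.83 CPM in 0 µM heme replicates 1 to 4. The groups did not overlap, and 10 µM heme replicate 4 was the lowest library. Means were 4.50 ± 1.18 CPM in 10 µM heme midguts and 9.33 ± 1.97 CPM in 0 µM heme midguts (SD, n = 4 each). CYP307A1 fell by 1.05 ± 0.27 on the log2 scale (SE; edgeR exact test, adjusted p = 0.00126), to 0.482 times the 0 µM level. The call held in each of the 18 alternatives, with adjusted p from 1.25e-04 to 0.0427 and log2 fold changes from -1.18 to -0.88.

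**Figure D3:**
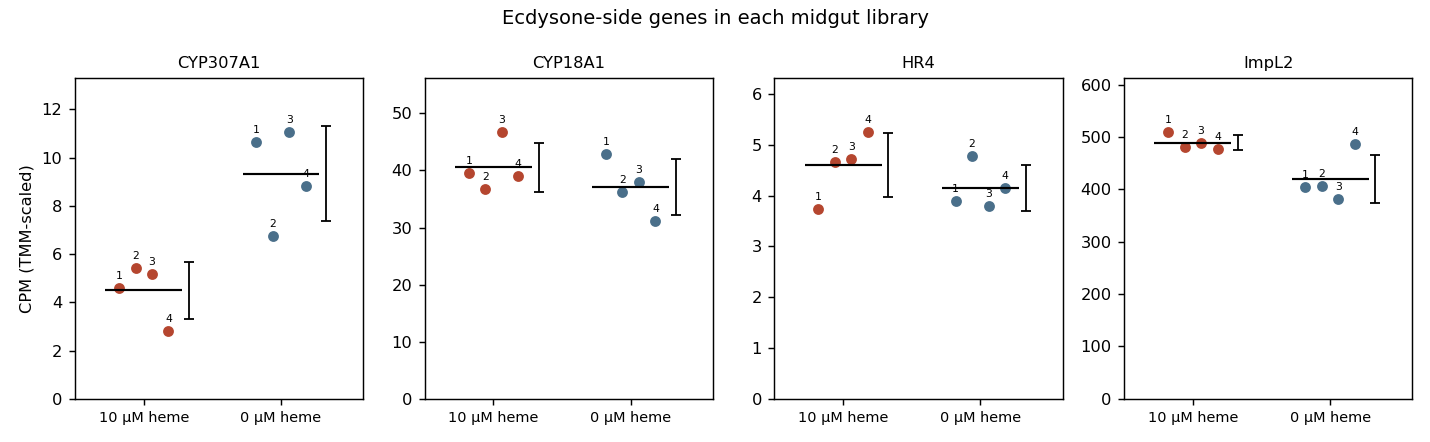
Level of the 4 ecdysone-side genes in every library, in TMM-scaled CPM on an axis from 0, with 10 µM heme midguts at left and 0 µM heme midguts at right. Points are libraries labelled by replicate number, horizontal lines are means and bars are ±1 SD (n = 4 each). CYP307A1 parts the groups, at 2.81 to 5.43 CPM against 6.76 to 11.1 CPM, while the groups of the other 3 genes overlap.

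The remaining ecdysone-side genes did not pass. CYP18A1 (AAEL004870), an enzyme that inactivates 20-hydroxyecdysone in *Drosophila*, had 40.5 ± 4.34 CPM in 10 µM heme midguts and 37.1 ± 4.89 CPM in 0 µM heme midguts (SD, n = 4 each; edgeR exact test, adjusted p = 0.878). HR4 (AAEL005850), a nuclear receptor of the ecdysone cascade, had 4.59 ± 0.628 CPM in 10 µM heme midguts and 4.15 ± 0.449 CPM in 0 µM heme midguts (SD, n = 4 each; edgeR exact test, adjusted p = 0.894). AAEL002130, annotated as the putative ecdysone inducible protein L2 (ImpL2), which in *Drosophila* is a secreted binding protein of insulin-like peptides, had 489.7 ± 14.4 CPM in 10 µM heme midguts and 419.8 ± 46.0 CPM in 0 µM heme midguts (SD, n = 4 each; edgeR exact test, adjusted p = 0.681). For AAEL002130, 3 of the 4 0 µM libraries lay below all 10 µM libraries, as for Met.

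On the juvenile hormone side, 0 of 3 genes were called by the edgeR exact test, beside 4.63% of all tested genes. At an unadjusted p under 0.05 there were also 0 of 3, beside 13.3%. The other tools called 0 of 3, beside 2.85% (quasi-likelihood), 6.45% (DESeq2) and 5.32% (limma-voom) of all tested genes. With 3 genes and shares this low, 0 calls say little of this side. An epoxide hydrolase (AAEL011314), of the enzyme family that includes a juvenile hormone degrading enzyme, varied most among replicates, with an edgeR biological coefficient of variation of 31.0%. It was measured at 37.5, 38.7, 31.2 and 14.5 CPM in 10 µM heme replicates 1 to 4, against 57.2, 37.5, 28.0 and 33.5 CPM in 0 µM heme replicates 1 to 4. A single low library at 10 µM and a single high library at 0 µM set the ends of that range (log2 fold change -0.36 ± 0.40, SE; edgeR exact test, adjusted p = 0.788). Its log2 fold change was -0.13 without 10 µM heme replicate 4 and -0.12 without 0 µM heme replicate 1. AAEL001195 and AAEL014439, both annotated as juvenile hormone-inducible proteins, had log2 fold changes of 0.14 and -0.035 in that order, and both overlapped between groups. Leaving out 1 library moved AAEL001195 to between 0.034 (without 0 µM heme replicate 1) and 0.24 (without 10 µM heme replicate 1). The same step moved AAEL014439 to between -0.15 (without 10 µM heme replicate 3) and 0.026 (without 10 µM heme replicate 2), so its sign was not settled.

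Coregulators were represented by AAEL008244, annotated as a thyroid hormone receptor-associated protein, a name used for Mediator subunits that contact nuclear receptors, and by AAEL007252, a subunit of the Sin3 corepressor complex named sap130. Neither was called (edgeR exact test, adjusted p = 0.858 and 0.993 in that order), beside 4.63% of all tested genes. Of the 9 listed genes, only CYP307A1 had groups that did not overlap, beside 10.2% of all tested genes.

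**Figure D4:**
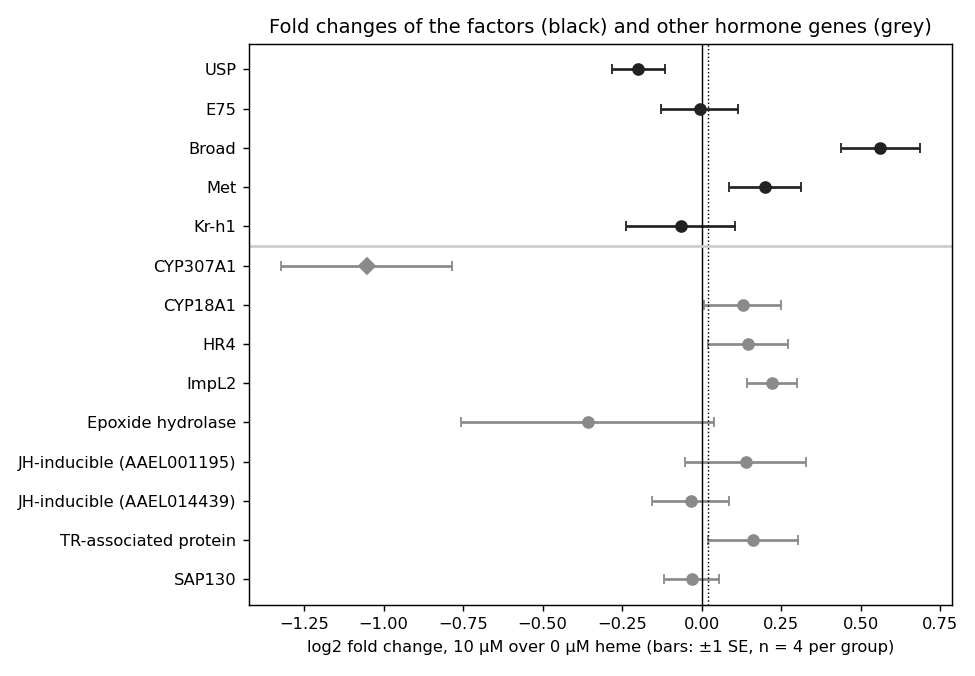
Log2 fold change of 10 µM over 0 µM heme for the 5 measured factors (black) and the 9 other hormone genes (grey), with bars of ±1 SE (n = 4 per group), a solid line at 0 and a dotted line at the median of all tested genes, 0.019. A diamond marks a gene called at adjusted p 0.05, which is CYP307A1 alone, at -1.05. The bar drawn for Broad, 0.12, is too small, since counting error alone gives 0.23.

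Lastly, the genes whose pattern over the 8 libraries was most like that of each factor were sought among 745 tested identifiers with a description in the study's annotation. Likeness was the root mean square difference of log2 CPM after each gene was centred on its own mean, so that 0 means an identical pattern. The nearest to Met was AAEL002130, the ImpL2 homologue, at 0.10, where the median over the 745 identifiers was 0.26. A gene with no variation at all would lie at 0.17 from Met, 0.21 from Kr-h1 and 0.30 from Broad. For USP it was AAEL008406, a cationic amino acid transporter, at 0.069 against a median of 0.23, followed by AAEL006982, a lipase, at 0.093. For E75, AAEL001740, described as a candidate tumor suppressor protein, and AAEL011584, a mitochondrial chaperonin, both lay at 0.097 against a median of 0.23.

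Kr-h1 lay nearest to AAEL013309, a high-affinity copper uptake protein, at 0.12 against a median of 0.28. Broad lay nearest to AAEL001749, a putative ventrhoid transmembrane protein, at 0.11 against a median of 0.36, followed by AAEL006012, a factor for adipocyte differentiation, at 0.15. AAEL001749 was called in the edgeR exact test, with a log2 fold change of 0.53 (adjusted p = 0.00684), while AAEL006012 was not (0.51, adjusted p = 0.105). Likeness over all 8 libraries includes the difference between the groups. Fold changes near that of Broad thus follow from how these genes were picked, and add nothing to the test of Broad. The same holds for AAEL002130, with a log2 fold change of 0.22, and Met, with 0.20. Second for Met was AAEL001396, a mandelate racemase, at 0.11, and second for Kr-h1 was AAEL005232, a regulatory subunit of cyclin-dependent kinases, at 0.14. Among the factors themselves, USP and E75 differed least from each other (0.18) and USP and Broad most (0.37). A gene with no variation at all would lie at 0.14 from USP and 0.15 from E75, so this pair was less alike than either was to a flat pattern. These are descriptions over 8 libraries that share their scaling, and the neighbours were picked from many candidates.

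**Figure D5:**
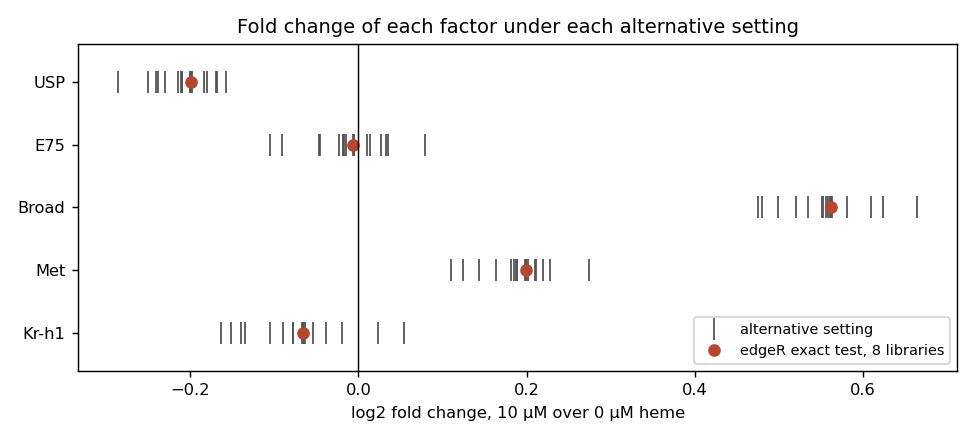
Log2 fold change of 10 µM over 0 µM heme for each measured factor in the edgeR exact test on 8 libraries (red points) and in each alternative (grey ticks), with a line at 0. USP stays below 0 and Broad and Met above 0 in every alternative drawn, while E75 and Kr-h1 cross 0.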

How the data were processed

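The labels gave each library its group and replicate number. Single-end reads had been aligned by the authors to AaegL5 with HISAT2 2.1.0, alignments of low mapping quality removed with SAMtools, and reads counted per transcript with bedtools 2.19.1. For strand and for reads over several transcripts, the treatment was not given in the sources used here. Raw counts per identifier were deposited, without normalization and with replicates separate. Total counts were 46027977 to 56947544 per library, and 1981 of 19712 identifiers had 0 counts throughout. Since 0 of these identifiers matched the RefSeq gene table of AaegL5.0, no positions, lengths or sequences are given.

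Genes were kept by filterByExpr, scaled by TMM and compared by the two-sided exact test (edgeR 4.0.16, R 4.3.3), the test named in the study's methods, with Benjamini-Hochberg adjustment over 11095 genes and a threshold of 0.05. SEs are of differences between mean log2 CPM (prior count 2). Alternatives were the quasi-likelihood test without and with a replicate block, limma 3.58.1 (voom, quality weights), DESeq2 1.42.0, its size factors in the exact test, library totals, no filter, CPM over 1 in 4 libraries, a run of 26 identifiers left out, each library left out, and 1 library of each group left out together. The tests were tested on simulated data.

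The factors and lists were chosen with earlier results of these data known. Named genes were all factors, the 9 listed hormone genes and, for each factor, the 2 described identifiers most alike in pattern, beside 2 tissue markers. P-values set the difference between groups against the spread between these pools and counting error.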

Additional observations from a re-analysis of the deposited data

Results flagged for a closer look

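In 28 groups of 4 values (5 factors and 9 hormone genes in both treatments), 1 held a library far from the others, where chance gives about 1.4. Met (AAEL025915) was at 81.8 CPM in 10 µM heme replicate 3, against 66.6 to 67.6 CPM in the other 10 µM libraries. The gap took 0.931 of the range of the group, above Dixon's 95% critical value for 4 samples.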

How the results depend on the processing

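None of the 5 factors was called in any of the 18 alternatives, and CYP307A1 was the 1 gene called of the 9 listed hormone genes in all 18. Over all tested genes, the count called ran from 316 of 11095 (quasi-likelihood test) to 725 of 11095 (the same test with a replicate block). With 5 factors and shares this low, 0 calls in each alternative say little of the factors. Broad (AAEL008426) is removed by the filter of CPM over 1 in 4 libraries, which gives no value for it, and its fold change is limited by depth. The log2 fold change of E75, -0.0061, had the opposite sign in limma-voom (0.027) and without 10 µM heme replicate 2 and 0 µM heme replicate 1 together (0.036), and ranged from -0.090 to 0.079 when 1 library was left out. That of Kr-h1, -0.066, ranged from -0.15 to 0.054 when 1 library was left out. The cause was not tested. USP stayed below 0 and Broad and Met above 0 in all alternatives. The count of tested genes called, 514 by the exact test, was 316 in the quasi-likelihood test and 333 to 549 when 1 library was left out, lowest without 10 µM heme replicate 3. Of called genes, 47.9% were higher under TMM and 32.1% with library totals. Replicate numbers are not used as pairing, since same-numbered libraries had correlations of 0.515, 0.0702, 0.0616 and 0.157 between their deviations from the group means (across 11095 genes, not independent of each other), and in 1 of 4 numbers both libraries matched each other best. Adding the replicate block to the quasi-likelihood fit gave 725 called genes, 0 of the 5 factors (adjusted p = 0.233 for Broad, log2 fold change 0.56, and 0.334 for USP, log2 fold change -0.20) and 1 of the 9 hormone genes. The log2 ratios of EcR to USP and of E75 to EcR, and the fold change of EcR, were planned and not run.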

Other observations

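Under TMM scaling, 10 µM heme replicate 4 was the lowest library of its group for all 5 factors, and also for 3 of the 9 other hormone genes, while it was the highest for 4 of those 9. With library totals it was the lowest for 2 of the 5 factors, E75 and Kr-h1, and 10 µM heme replicate 1 was the lowest for 3. The share of all tested genes for which each library is the lowest was not computed. The TMM factor of 10 µM heme replicate 4 was 1.07, the highest of the 10 µM libraries, and 0.848 was the lowest, in replicate 1. In the 0 µM group, replicate 3 was lowest for 4 of the 5 factors under TMM and for 3 of 5 with library totals. Without 10 µM heme replicate 4, log2 fold changes were -0.16 for USP, 0.079 for E75, 0.66 for Broad, 0.23 for Met and 0.023 for Kr-h1. In that fit 0 of 5 were called by the edgeR exact test, beside 421 of 11245 tested genes. The part of this library in those values was not tested further.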
